A study of Mus musculus with 8 samples.

Results

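The 8 genes Esr1, Hras, Rassf1, Ccnd1, Cdkn2a, Trp53, Myc and Fosb were chosen by name, because they are known for methylation linked to arsenic or for a part in liver tumours. Their cytosines were taken from 2 kb upstream of the outermost transcript start to the gene end in curated RefSeq transcripts on GRCm38 (mm10), which gave 8 of 26180 annotated genes and 1191 of the 2130064 CpGs measured in every sample. Each strand of a CpG was counted on its own. Reduced representation bisulfite sequencing (RRBS) was done on cells labelled as type A spermatogonia, which were isolated with an antibody against CD49f/Itga6 from the testes of C3H/HeN F1 males on postnatal day 6. Dams of the control group had tap water. Sodium arsenite at 85 ppm was added to the water of the other dams between gestational days 8 and 18 (arsenic group). Cells of 8 testes, taken from 4 mice, were joined in 1 pool, with 4 pools in each group, so single animals cannot be told apart within one. The p-values of regions measure the spread between pools, and the q-values of single CpGs by logistic regression do not.

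A methylation level is the share of reads at a CpG that kept their C after bisulfite treatment, in percent. Promoters of active or inducible genes lie mostly in CpG islands that are kept free of methylation, and gain of methylation there is a known route by which tumour suppressor genes such as Cdkn2a and Rassf1 are silenced in cancers. Gene bodies are mostly methylated outside such islands. The 8 genes act in linked growth pathways: Ras signals raise cyclin D1 and AP-1 activity, cyclin D1 with its kinases inactivates the Rb protein, and the products of Cdkn2a and Trp53 hold this cycle in check. Estrogen receptor alpha and Myc are transcription factors that act on growth genes. In the paragraphs that follow, a promoter runs from 1 kb upstream to 100 bases downstream of each start, the upstream stretch is the rest of the 2 kb before the outermost start, and the gene body is the remainder. A region was given an average level, the mean over its CpGs in each pool, when it held at least 3 CpGs.

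Coverage summed over all CpGs, where a read counts at each CpG that it covers, was 96428439 to 133406260 per pool. The median coverage was 31 to 44 reads at a CpG, and the mean level over all CpGs was 53.6 to 54.3%. Promoters of 12 germ line genes, which are known to be methylated in somatic cells and not in germ cells, had a mean level of 85.2%, from 82.8% to 87.1% over the 8 pools, where the median of all 12638 promoters was 1.84%. The promoters of Ddx4 and Dazl, both RNA-binding factors of germ cells, stood at 80.2% and 94.9%. Promoters of 10 maternally imprinted genes, which carry no methylation in male germ cells, stood at 57.4%, from 53.1% to 62.4%. These levels go against the labelled cell type. In control and arsenic pools they were 85.5% ± 1.19 and 84.9% ± 1.78 at the germ line promoters and 58.5% ± 2.99 and 56.3% ± 4.05 at the imprinted ones (SD, n = 4 each). Their part in the levels below was not tested.

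The 8 genes were mostly unmethylated where RRBS read them. Of the 1191 CpGs, 861 had an average level under 10%, 145 were over 90% and 185 lay between, and at 178 CpGs no methylated read was found in any of the 8 pools. In Esr1 and Rassf1 most CpGs were over 10%, with 42 of 219 and 27 of 78 under it, and in Myc 139 of 139 were under 10%.

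**Figure D1:**
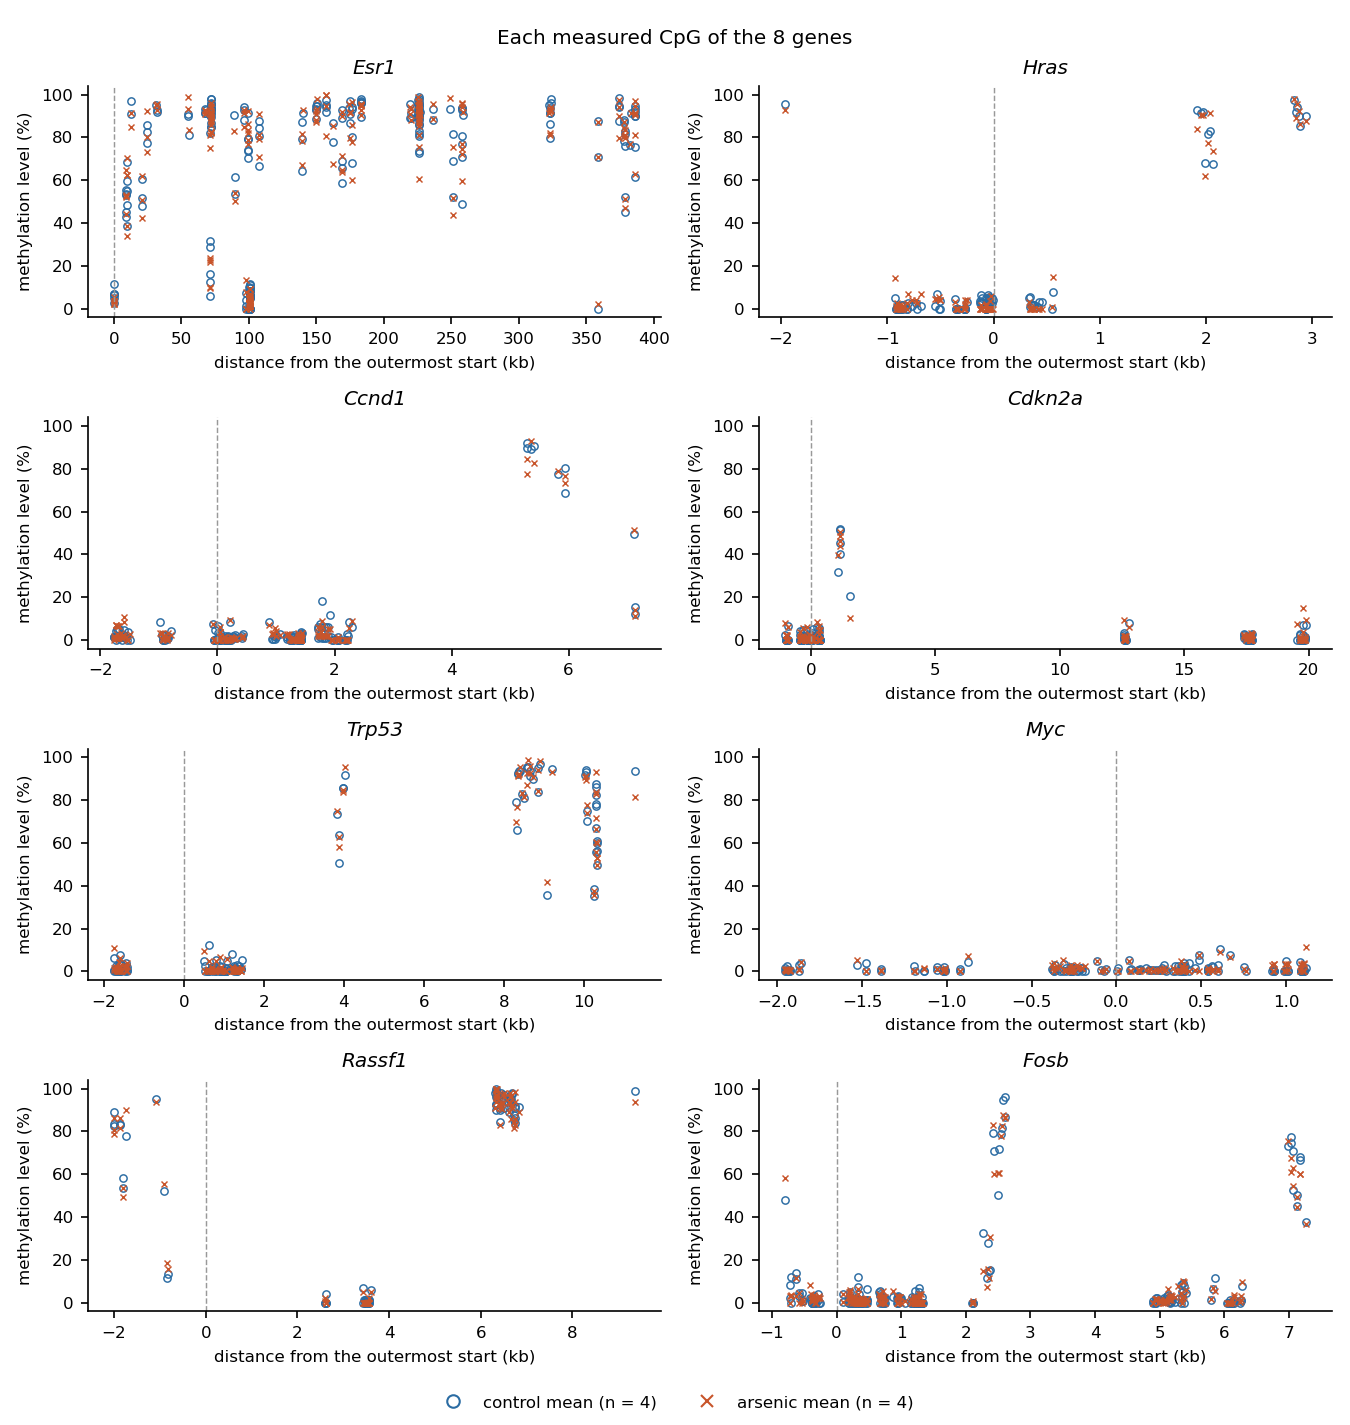
Methylation level in percent of each measured CpG (vertical axis) against its distance from the outermost transcript start in kb (horizontal axis) in the 8 genes. Open circles are the mean of 4 control pools and crosses the mean of 4 arsenic pools. The CpGs near the starts of Hras, Ccnd1, Cdkn2a, Myc and Fosb lie mostly near 0. High levels appear within the gene bodies of Hras, Ccnd1 and Fosb and at the 1 upstream CpG of Hras, and in Myc 139 of 139 CpGs are under 10%.

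The question put to these genes was whether their levels differed between control and arsenic pools. At the level of regions no difference passed a test. Of 20 regions with at least 3 CpGs (7 promoters, 5 upstream stretches and 8 gene bodies) 0 had arsenic and control pools that did not overlap, where 2.94% of all promoters, 3.07% of all upstream stretches and 3.93% of all gene bodies did not. The lowest two-sided exact permutation p was 0.114, for the Trp53 gene body, where 4 against 4 pools allow no p below 0.0286. In limma on log2 ratios of methylated to unmethylated reads, 0 of the 20 regions passed an adjusted p of 0.05 and 0 had an unadjusted p under 0.05, with adjusted p from 0.971 to 1.00. The share called over all 35499 gene regions was 0%. When 1 pool was left out, 0 or 1 of the 20 regions had groups that did not overlap, beside 6.11 to 6.93% of all gene regions.

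The direction was lower in arsenic pools in 12 of the 20 regions and higher in 8. Upstream stretches were lower in 2 of 5, with a median of 0.273 points. Over all genes 54.1% of upstream stretches were lower, with a median of −0.149. Without control pool 1, 3 of 5 were lower, with a median of −0.0505 points beside −0.175 over all upstream stretches. Gene bodies were lower in 6 of 8, by a median of −0.497 percentage points, and over all genes 61.5% of 18955 gene bodies were lower, with a median of −0.277. With CpGs weighted by coverage 5 of 8 were lower, with a median of −0.196 points beside −0.405 over all gene bodies, and the Hras, Fosb and Cdkn2a gene bodies changed direction. Promoters were lower in 4 of 7, with a median of −0.0613 points beside −0.0597 over all promoters. This tally was not stable: at a coverage of at least 20, 1 of 6 promoters was lower (median 0.291 points, beside −0.0549 over all promoters), and without control pool 1 it was 2 of 7 (median 0.418, beside −0.0417). Intervals of the difference, from the smallest to the largest of the 16 differences between an arsenic and a control pool (97.1% confidence), differed in width. In gene bodies they were narrowest in Fosb, from −1.17 to 0.249 points, and widest in Hras, from −3.74 to 1.52. In promoters they were narrowest in Cdkn2a, from −0.756 to 0.624, and widest in Esr1, from −2.85 to 6.71.

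**Figure D2:**
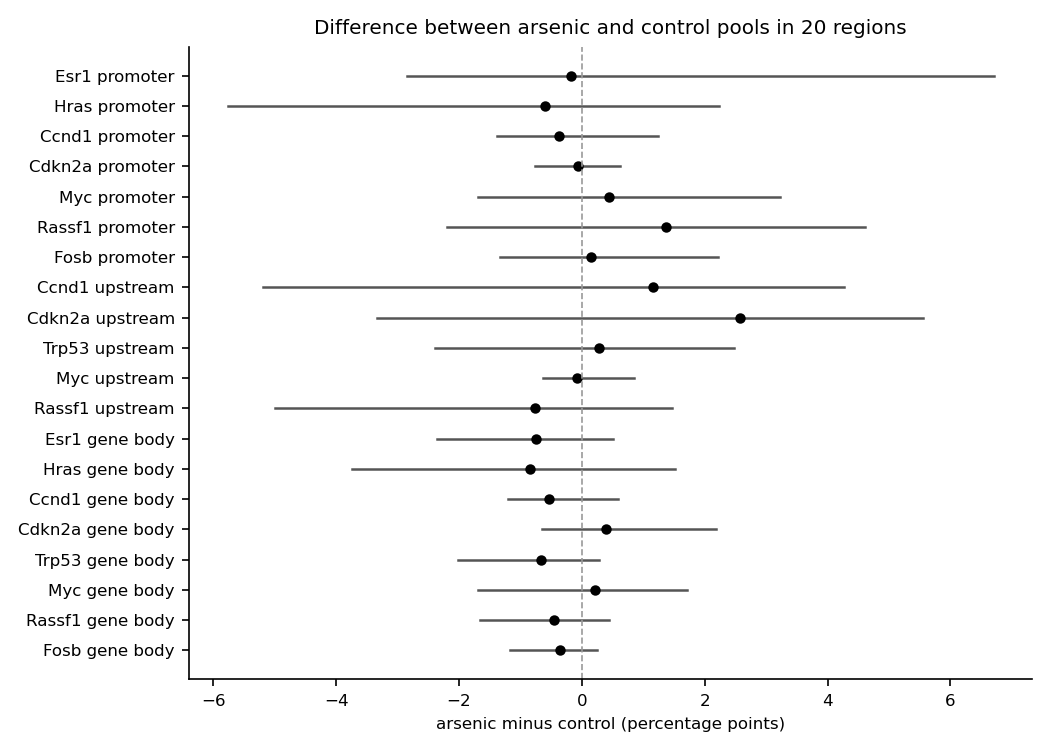
Arsenic minus control difference of the average methylation level in percentage points (horizontal axis) in each of the 20 regions (vertical axis). Points are differences of group means (n = 4 each), and lines run from the smallest to the largest difference between an arsenic and a control pool. In all 20 regions the line crosses 0.

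Single CpGs were called differentially methylated (DMCs) by logistic regression on the read counts, when the q-value (Benjamini-Hochberg) was 0.01 or less and the levels differed by 10 percentage points or more. Of the 1191 CpGs 2 were DMCs (0.168%), beside a background of 0.552% of all CpGs. Both lay in introns of Esr1 and both were lower in arsenic pools (hypoDMCs), where 0.323% of all CpGs were hypoDMCs. Arsenic and control pools did not overlap at 19 of the 1191 CpGs (1.60%), 13 lower and 6 higher, beside 2.1% of all CpGs. Both shares were below the background. Of the 19, 9 lay in Esr1, 4 in Fosb, 2 in Rassf1, 1 each in Hras, Ccnd1, Cdkn2a and Trp53, and 0 in Myc. Among the 185 CpGs between 10 and 90% the share without overlap was 5.95%, beside 2.89% of all CpGs of that class, and 1 was a DMC (0.541%, beside 0.916%). The logistic regression counts reads as independent: its p was under 0.05 at 255 CpGs (21.4%) here and at 17.8% of all CpGs. With the spread between pools in the test, by overdispersion scaling and an F test, 0 CpGs were called, here and among all 2130064, and 51 had an unadjusted p under 0.05 (4.28%, beside 3.87% of all CpGs). By limma per CpG 0 were called, here and among all CpGs, and 58 had an unadjusted p under 0.05 (4.87%, beside 5.11%).

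Esr1 encodes estrogen receptor alpha, a ligand-activated transcription factor. The gene spans chr10:4611989-5005633 on the plus strand, with starts at 4611989 and 4710158, and 219 of its CpGs were measured, 7 in promoters and 212 in the gene body. The first hypoDMC, at chr10:4837800, and the second, at chr10:4863044, lie in introns 4 and 5 of a transcript with 9 exons, 225811 and 251055 bases from the outermost start. Their surroundings on the plus strand of GRCm38 are shown because these are the DMCs of the 8 genes, with the measured CpGs in capitals (chr10:4837770-4837829 and chr10:4863014-4863073). In the first sequence the DMC is the middle one of 3 adjoining CpGs.
Esr1 intron 4: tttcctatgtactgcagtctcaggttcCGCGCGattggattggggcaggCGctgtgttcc
Esr1 intron 5: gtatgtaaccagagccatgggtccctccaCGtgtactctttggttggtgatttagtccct

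At chr10:4837800 the level in control pools 1 to 4 was 100, 100, 100 and 96.1%, and in arsenic pools 1 to 4 it was 95.5, 88.5, 86.7 and 81.0%, from 37 to 63 reads a pool. All 4 arsenic pools were below all 4 control pools, the highest arsenic pool by less than 1 point. The means were 99.0% ± 1.96 and 87.9% ± 5.98 (SD, n = 4 each), and the difference of pooled reads was −11.6 points (q = 0.000968 by logistic regression, Benjamini-Hochberg over all CpGs). The CpGs on either side of it, 2 bases away and read on the same strand, overlapped between groups: at 4837798 the means were 98.1% and 96.3%, and at 4837802 they were 90.7% and 91.1%. Without arsenic pool 4 the difference at chr10:4837800 was −9.11 points (q = 0.0126) and the site was no longer a DMC.

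At chr10:4863044 control pools stood at 68.8, 74.5, 70 and 61.9% and arsenic pools at 46.0, 53.2, 48.6 and 59.0%, from 63 to 117 reads. The groups did not overlap, with control pool 4 and arsenic pool 4 closest to each other. The means were 68.8% ± 5.23 and 51.7% ± 5.67 (SD, n = 4 each), a difference of −16.3 points in pooled reads (q = 0.00205 by the same test). The cytosine of the same CpG on the other strand, at 4863043, had means of 52.3% ± 8.02 and 43.9% ± 11.9, which overlapped (q = 0.516). Without control pool 2 the difference at chr10:4863044 was −14.2 points (q = 0.0231), and without arsenic pool 1 it was −14.8 points (q = 0.0109). Both q-values were above the 0.01 of a DMC. Without arsenic pool 3 the count of DMCs in the 8 genes was 11 (0.924%, beside 0.541% of all CpGs without that pool), so that the share moved from below to above the background. Of the 11, 4 were hypoDMCs, and 5 of the other 7 were neighbouring CpGs of Esr1 at chr10:4712221-4712290. At these 5 only arsenic pool 4 had methylated reads, 8 of 39 to 42 at each. They rest on that pool alone and are not separate differences between the groups. An Esr1 CpG just outside the threshold, chr10:4870214, was higher in arsenic pools, at 48.8% ± 5.25 and 59.8% ± 4.22 (q = 0.0108). At a coverage of at least 20 it was called (q = 0.00846), and the 8 genes then held 3 DMCs of 656 CpGs (0.457%, beside 0.713% of all CpGs). It was named after its value was seen.

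**Figure D3:**
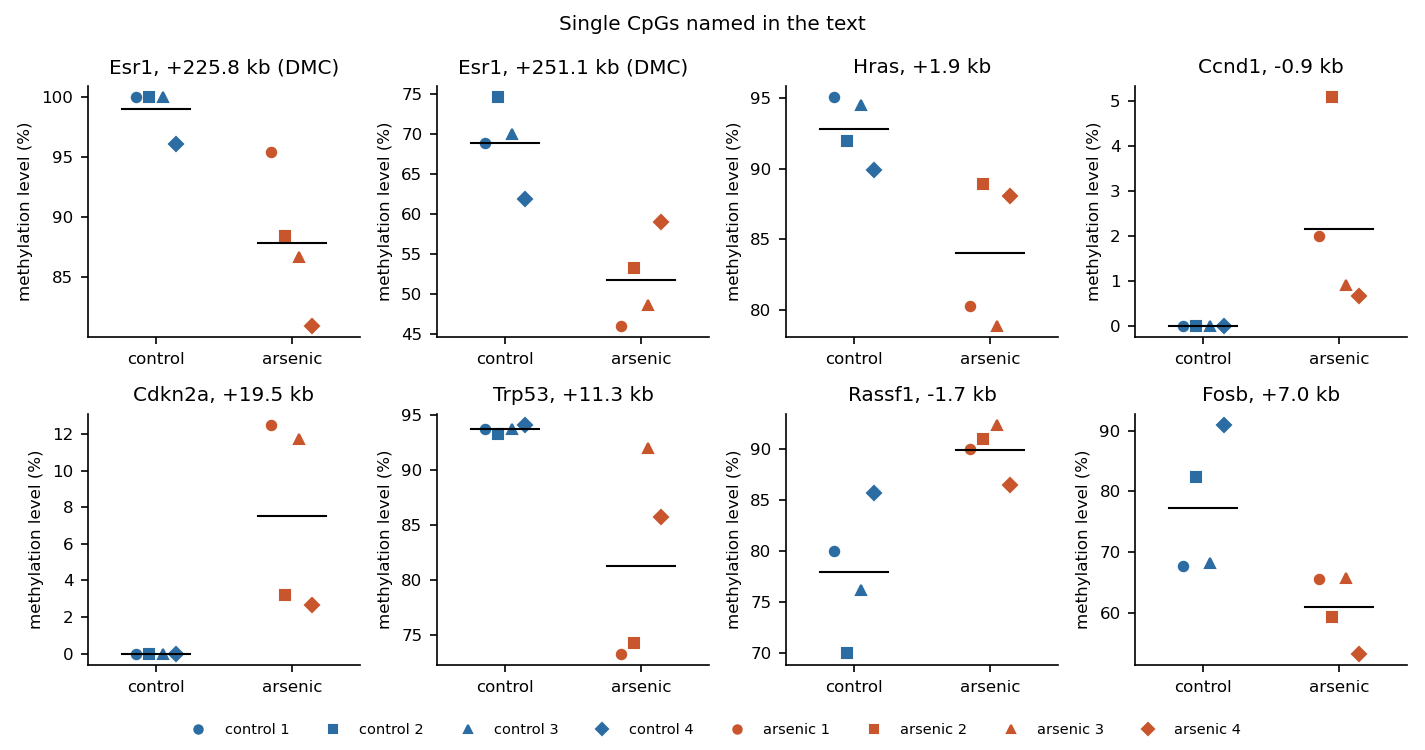
Methylation level in percent (vertical axes, which differ between panels and mostly do not start at 0) of single CpGs in the 4 control and 4 arsenic pools (horizontal axis), with lines at the group means. Panels give the gene and the distance from the outermost start, and DMC marks the 2 hypoDMCs of Esr1. The other 6 were picked as the largest differences without overlap, so the gap between groups in them is how they were chosen.

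The average level of the Esr1 gene body was 70.4, 69.1, 69.4 and 69.0% in control and 68.6, 68.1, 69.5 and 68.8% in arsenic pools. The groups overlapped through arsenic pool 3, and the difference was −0.741 points (exact permutation p = 0.143, n = 4 each). Without arsenic pool 3 they did not overlap, at 69.5% and 68.5%, and without control pool 1 the difference was −0.428 points. With CpGs weighted by coverage the difference was −1.62 points (exact permutation p = 0.171). Levels differed widely along the gene. A stretch of 10 CpGs in intron 1, 9226 to 9630 bases from the start, stood at 51.3 to 55.1% in all 8 pools, and 5 CpGs at chr10:4683274-4683397 stood at 12.5 to 25%. Gaps over 200 bases divided the CpGs of the 8 genes into 93 such stretches. In 5 of the 93 (4 in Esr1 and 1 in Trp53) the groups did not overlap, a higher share than the 3.03% of all stretches. Those of the 5 that are single CpGs were already counted among the 19 CpGs without overlap.

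The longest of the 4 in Esr1 held 15 CpGs of intron 1 or 2, depending on the transcript, at chr10:4683754-4684191. It stood at 92.6, 91.7, 91.1 and 94.0% in control and 89.3, 89.3, 86.6 and 90.9% in arsenic pools, a difference of −3.31 points with 0 DMCs. The stretch of 3 CpGs that holds the second hypoDMC stood at 67.6% ± 5.12 in control and 57% ± 1.63 in arsenic pools (SD, n = 4 each). The other 2 were single CpGs, lower in arsenic pools at chr10:4701110 (90.3% and 82.9%) and higher at chr10:4860757 (93.1% and 98.3%). The 2 Esr1 promoters together held 7 CpGs, at 5.29, 5.56, 0.840 and 5.28% in control and 2.98, 2.99, 7.55 and 2.71% in arsenic pools, with control pool 3 lowest and arsenic pool 3 highest (difference −0.184 points, exact permutation p = 0.743, n = 4 each). When 1 pool was left out this difference changed sign in 6 of 8 runs, with a range of −1.35 to 0.265 points. For the promoter of the outermost start alone the difference was −3.05 points (exact permutation p = 0.371).

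The CpG-dense stretch over exon 2 of Esr1, at chr10:4712221-4712828, was close to unmethylated, with 31 CpGs at 0.9 to 5.0% in 7 pools and 12.2% in control pool 1. Methylated reads there came in runs. At 8 CpGs from chr10:4712702 to chr10:4712768, whose sequence is shown with these CpGs in capitals (chr10:4712700-4712770, plus strand, coding), control pool 1 had 6 to 8 methylated reads of 29 or 30 at each CpG. A count of 6 of 30 is 20%, with a Wilson interval of 9.51 to 37.3%. Arsenic pool 3 and control pool 4 had methylated reads at 7 of the 8 CpGs, at most 6 of 32 to 34 reads and at most 2 of 48 to 50. The mean level over the 8 CpGs was 20.9% in control pool 1, 6.69% in arsenic pool 3, 3.56% in control pool 4 and 3.17% in control pool 2. In the other 4 pools it was at most 0.926%, with a count of 0 at all 8 CpGs in control pool 3, of 26 reads.
Esr1 exon: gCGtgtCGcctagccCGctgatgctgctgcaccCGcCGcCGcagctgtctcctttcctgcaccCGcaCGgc

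Other pools were highest elsewhere in the same stretch. At 4 CpGs 100477 to 100524 bases from the outermost start arsenic pool 2 had 4 to 6 methylated reads of 29 to 32, a mean level of 18%. Arsenic pool 1 had 2 methylated reads at each of the 4 (5.97%), arsenic pool 4 had some at 2 of the 4 (5.56%), and arsenic pool 3 and the 4 control pools had 0. At 5 CpGs 100232 to 100301 bases from the start arsenic pool 4 had 8 of 39 to 42 and the other 7 pools had 0. The 8 CpGs shown above had higher coverage than the 7 CpGs after them, with median counts of 6 of 30 and 3 of 15 reads in control pool 1. Coverage was even in all 8 pools at 54 of the 1191 CpGs (4.53%) and at 2.93% of all CpGs. Independent parity would give 0.391% if even and odd coverage were equally likely. In single pools 54.4 to 55.8% of CpGs had even coverage, so that independence would give more than 0.391%. With counts halved at CpGs whose counts were even in every pool, an alternative chosen after seeing the data, the same 2 DMCs were called.

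Hras encodes a small GTPase that relays growth factor signals to the MAP kinase cascade. It lies at chr7:141189934-141194004 on the minus strand, and 66 of its 93 CpGs are in the promoter. The average promoter level was 6.54, 1.01, 0.236 and 0.851% in control and 2.47, 0.774, 1.01 and 1.99% in arsenic pools. Control pool 1 was above the other 7 pools. The group means were 2.16% ± 2.94 and 1.56% ± 0.801 (SD, n = 4 each), a difference of −0.601 points (exact permutation p = 0.886), and without control pool 1 the difference was 0.860 points (exact permutation p = 0.286).

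The part of the promoter next to the start is shown because the methylated reads of control pool 1 recur in it at neighbouring CpGs. It is chr7:141194013-141194130 on the minus strand, 5′ to 3′ in the direction of transcription, with measured CpGs in capitals.
Hras promoter: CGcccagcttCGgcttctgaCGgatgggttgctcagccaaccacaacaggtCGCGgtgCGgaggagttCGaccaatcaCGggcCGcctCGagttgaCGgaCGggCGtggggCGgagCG

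In control pool 1 methylated reads were found at 11 of the 14 CpGs in this sequence read on the plus strand, at most 6 of 30, and at 13 of 15 read on the minus strand, at most 6, with a median of 4 of 37. In control pool 3 and arsenic pool 1 the count was 0 at all 29, from 12 to 30 reads a CpG, and in the other 5 pools methylated reads were found at 2 to 3 of the 29. The mean level over the plus-strand CpGs was 15.9% in control pool 1 and at most 1.10% in the 7 others.

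**Figure D4:**
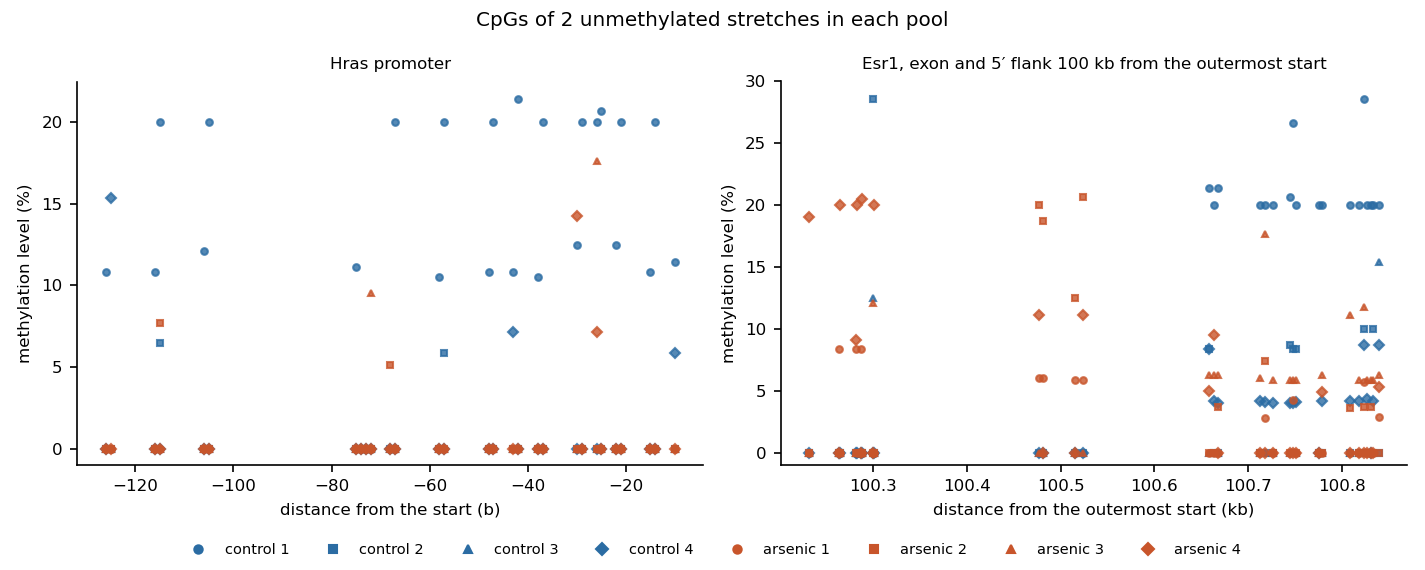
Methylation level in percent (vertical axes) of each CpG in each of the 8 pools against the distance from the transcript start, in bases for the Hras promoter (left) and in kb for the exon and 5′ flank of Esr1 (right). Control pool 1, drawn as blue circles, lies near 10 to 20% at most CpGs of the left panel and near 20% at the right end of the right panel, where the other pools are lower.

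Over the 8 genes, 760 CpGs had a median level under 2% over the pools, and at 97 of these exactly 1 pool was over 10%. That pool was control pool 1 at 36 CpGs, 23 of them in Hras and 7 in Esr1, and each of the other pools at 6 to 13. The Hras gene body stood at 46.7, 44.5, 42.8 and 44.4% in control and 44.2, 43.5, 44.3 and 43.0% in arsenic pools, which overlapped, with control pool 1 highest. The difference was −0.847 points (exact permutation p = 0.4, n = 4 each). With CpGs weighted by coverage it was 4.17 points (exact permutation p = 0.371). Without control pool 1 it was −0.141 points, and without control pool 3 the groups did not overlap, at 45.2% and 43.8%. Levels in it rose from 1.1 to 5.1% in intron 1 to 75.5 to 87.0% around exon 5. The largest difference without overlap was at chr7:141192089 in intron 4, at 95.1, 91.9, 94.5 and 89.9% in control and 80.3, 88.9, 78.8 and 88.1% in arsenic pools. It was −8.89 points in pooled reads, short of the 10 points of a DMC, with q = 0.0276.

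Rassf1 encodes a scaffold protein that binds Ras-like GTPases and restrains growth, and its CpG island promoter is often methylated in tumours. It has 2 starts on the plus strand of chromosome 9, at 107551555 and 107554583. The promoter average was 11.0, 8.89, 9.82 and 10.8% in control and 13.5, 8.81, 11.5 and 12.2% in arsenic pools, so that arsenic pool 2 was the lowest of all 8 pools and the other arsenic pools were above every control pool. The difference was 1.37 points (interval −2.19 to 4.62, exact permutation p = 0.257, n = 4 each), from 8 CpGs and 111 to 244 reads a pool. Without arsenic pool 2 the groups did not overlap, at 10.1% and 12.4% (difference 2.27 points), and without arsenic pool 1 the difference was 0.706 points. It was 4.06 points for the promoter of the outermost start alone and 2.48 with CpGs weighted by coverage, and the groups overlapped in both.

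The promoter joins unlike CpGs of the 2 starts. The first start had a group of 4 CpGs, from −1094 to −830 bases of it, at 42.6 to 44.2% in control and 40.8 to 49.6% in arsenic pools, of which 3 lie in the promoter. The other 5 promoter CpGs, in a coding exon before the second start, stood at 0.0 to 2.0% in all 8 pools. The unmethylated group is shown on the plus strand (chr9:107554150-107554190), with its measured CpGs in capitals. The sequence is labelled by the second start, which it precedes and does not reach.
Rassf1 second start: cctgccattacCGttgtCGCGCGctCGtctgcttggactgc

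The Rassf1 gene body had 38 CpGs in exons 3 to 5 and adjoining introns at 91.9 to 93.7% and 22 CpGs in an intron at 0.284 to 1.89%, and its average was 59.6 to 60.6% in control and 58.9 to 60.1% in arsenic pools. Arsenic pool 4 was lowest, and without it the difference moved from −0.455 to −0.186 points. With CpGs weighted by coverage the difference was −0.845 points (exact permutation p = 0.857). Without control pool 1 the groups did not overlap, at 60.3% and 59.7%. The 9 upstream CpGs averaged 77.7, 78.5, 77.3 and 80.5% in control and 78.8, 78.1, 75.5 and 78.6% in arsenic pools, which overlapped. The upstream CpG at chr9:107549808 had the largest difference without overlap, with 80, 70, 76.2 and 85.7% in control and 90, 90.9, 92.3 and 86.5% in arsenic pools. Its 13 to 37 reads a pool were few, and its difference of 11.6 points had q = 0.247.

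Ccnd1 encodes cyclin D1, which drives cells from G1 into S phase with its kinases. It lies on the minus strand at chr7:144929931-144939831. The promoter, 28 CpGs, stood at 2.24, 2.30, 1.33 and 1.88% in control and 1.54, 2.57, 0.922 and 1.27% in arsenic pools. The groups overlapped and the difference was −0.364 points (exact permutation p = 0.371, n = 4 each). In the gene body 106 CpGs averaged 8.25, 7.99, 8.28 and 7.95% in control and 8.53, 7.53, 7.08 and 7.15% in arsenic pools. Arsenic pool 1 was highest and the other 3 arsenic pools lowest, a difference of −0.539 points (exact permutation p = 0.171), with the lowest limma p of the 20 regions (p = 0.178, adjusted p = 0.971 by limma over all gene regions). Without arsenic pool 1 the groups did not overlap, at 8.12% and 7.26% (difference −0.859 points). With CpGs weighted by coverage the difference was −1.09 points (exact permutation p = 0.2). The 26 upstream CpGs stood at 0.275, 5.73, 1.36 and 0.197% in control and 3.98, 0.541, 4.47 and 3.22% in arsenic pools, with a wide spread in both groups (difference 1.16 points, exact permutation p = 0.429, n = 4 each). The difference was 2.44 points without control pool 2 and 0.596 without control pool 4.

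The CpGs of Ccnd1 from the start to 2.3 kb into the gene were at 0.6 to 5.6% in all 8 pools, and those in intron 3 and around exon 4 at 69.6 to 93.4%. In the last exon 3 CpGs varied widely between pools of 1 group, from 9.5 to 41.7% in control and from 19.6 to 39.4% in arsenic pools. At chr7:144940767, in the promoter at −936 bases from the start, control pools had 0 methylated reads of 99 to 140, and arsenic pools had 2 of 100, 6 of 118, 1 of 109 and 1 of 153. A count of 0 of 99 reads allows up to 3.03%, and 0 of 140 up to 2.14%. The arsenic levels of 2.00, 0.917 and 0.654% were under the limit of each single control pool, and 5.08% was above it. These limits are for pools taken 1 at a time and not for the control pools together. The difference was 2.08 points (q = 0.0161 by logistic regression). Without arsenic pool 2 it was 1.10 points (q = 0.129), and with both strands summed it was 1.08 points (q = 0.0466).

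Cdkn2a encodes 2 tumour suppressors from separate starts, p19ARF, which stabilizes p53, and p16INK4a, which inhibits the kinases of D-type cyclins. On the minus strand of chromosome 4 the p19 start is at 89294619 and the p16 start at 89282192. Sequences are shown for both because methylation near these starts is how the locus is known to be silenced in tumours. The first is 200 bases before the p19 start (chr4:89294620-89294819). The second is the end of p16 coding exon 1 with the first part of the intron that follows (chr4:89281852-89282034). Both sequences are on the minus strand with measured CpGs in capitals, 18 of 30 in the first and 9 of 9 in the second. In the 300 bases around the p16 start 0 CpGs were measured, and the part of exon 1 before the second sequence held no measured CpG.
Cdkn2a p19 upstream: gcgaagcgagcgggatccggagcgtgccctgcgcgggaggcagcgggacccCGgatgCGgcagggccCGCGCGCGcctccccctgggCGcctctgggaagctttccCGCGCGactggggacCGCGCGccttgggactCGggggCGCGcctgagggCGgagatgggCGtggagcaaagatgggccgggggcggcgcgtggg
Cdkn2a p16 exon 1: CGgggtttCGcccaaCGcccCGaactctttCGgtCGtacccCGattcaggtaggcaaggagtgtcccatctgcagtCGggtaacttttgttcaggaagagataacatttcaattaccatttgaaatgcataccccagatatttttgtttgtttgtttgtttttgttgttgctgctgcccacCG

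Levels were low around the p19 start and in the measured end of p16 exon 1 in all 8 pools. No CpG of the p16 promoter was measured, so the promoter average is that of the p19 start alone. The promoter average over 56 CpGs was 0.698, 0.888, 1.10 and 1.18% in control and 0.864, 0.423, 1.32 and 1.01% in arsenic pools, a difference of −0.0613 points with an interval of −0.756 to 0.624 (exact permutation p = 0.771, n = 4 each). Arsenic pool 2 was lowest and arsenic pool 3 highest. At the end of p16 exon 1 and in the intron after it 16 cytosines stood at 0.9 to 1.7% in control and 0.5 to 3.0% in arsenic pools. The 22 cytosines in and around the shared exon 2 stood at 0.5 to 1.0% in control and 0.2 to 3.5% in arsenic pools. The gene body average was 4.67, 3.41, 4.41 and 3.97% in control and 4.02, 5.59, 4.21 and 4.21% in arsenic pools, with arsenic pool 2 highest. The difference was 0.393 points, 0.0318 without arsenic pool 2 and −0.224 with CpGs weighted by coverage. The 3 upstream CpGs, from 66 to 120 reads a pool, stood at 0.0, 3.33, 0.0 and 0.0% in control and 5.41, 5.56, 0.0 and 2.67% in arsenic pools, which overlapped (exact permutation p = 0.257, n = 4 each). Between the starts 5 CpGs of intron 1 were at 35.1 to 54.3%.

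At chr4:89275071 in intron 2 of Cdkn2a the count was 0 in the 4 control pools, of 21 to 30 reads, and 3 of 24, 1 of 31, 2 of 17 and 1 of 38 in the arsenic pools. A count of 0 of 21 allows up to 14.3% and 0 of 30, in control pool 2, up to 10%. The arsenic levels ran from 2.63 to 12.5%, under the limit of each of the other 3 control pools taken alone. These limits are not for the control pools together. The difference was 6.36 points (q = 0.0682).

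Trp53 encodes p53, which halts the cell cycle or triggers cell death after DNA damage. It starts at 69580359 on the plus strand of chromosome 11, where 0 CpGs of the promoter were measured. The 28 upstream CpGs stood at 0.584, 0.705, 1.67 and 3.33% in control and 0.937, 1.67, 1.72 and 3.06% in arsenic pools, with pool 4 highest in each group. The gene body stood at 35.1, 34.6, 35.4 and 35.2% in control and 34.9, 34.8, 34.6 and 33.3% in arsenic pools. Control pool 2 fell among the arsenic pools, and the difference was −0.666 points (interval −2.01 to 0.283, exact permutation p = 0.114, n = 4 each), with p = 0.901 by limma. With CpGs weighted by coverage it was −0.168 points, and the groups overlapped. Without control pool 2 the groups did not overlap, at 35.2% and 34.4%, and without arsenic pool 4 the difference was −0.316 points.

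Within Trp53 the 57 CpGs of intron 1 nearest the start were at 0.7 to 2.0% in all 8 pools, and 19 CpGs around exons 6 and 7 at 84.4 to 88.9%. The 18 CpGs around exon 10 stood at 66.8 to 72.6% in control and 64.5 to 70.4% in arsenic pools. The CpG with the largest difference without overlap, chr11:69591631 in the non-coding part of the last exon, stood at 93.8, 93.3, 93.8 and 94.1% in control pools, which lay within 1 point of each other. Arsenic pools stood at 73.3, 74.3, 92.0 and 85.7%, from 15 to 35 reads (difference −12.2 points, q = 0.115).

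Myc encodes a transcription factor that drives growth and division. It starts at 61985341 on the plus strand of chromosome 15. Levels were low throughout, with 40 promoter CpGs at 1.02, 0.554, 2.24 and 0.629% in control and 1.12, 3.78, 0.799 and 0.547% in arsenic pools. Arsenic pool 2 was highest and the groups overlapped (difference 0.448 points, exact permutation p = 0.629, n = 4 each). Without arsenic pool 2 the difference was −0.292 points (exact permutation p = 0.8). The gene body was at 0.942, 1.02, 0.903 and 2.61% in control and 2.62, 0.914, 1.47 and 1.30% in arsenic pools, where 1 pool of each group stood above the rest. The 30 upstream CpGs were at 0.513 to 1.17% in control and 0.525 to 1.35% in arsenic pools. None of its 139 CpGs had groups that did not overlap.

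Fosb encodes a subunit of the AP-1 transcription factor, induced quickly by growth signals. It starts at 19310045 on the minus strand of chromosome 7. The promoter, 32 CpGs, stood at 4.89, 4.42, 4.20 and 2.65% in control and 4.12, 4.24, 3.56 and 4.87% in arsenic pools, with control pool 4 lowest (difference 0.154 points, exact permutation p = 0.857, n = 4 each). The promoter difference was −0.309 points without control pool 4 and −0.206 points with CpGs weighted by coverage. At 2 of the promoter cytosines the genome has no CG, and without cytosines of this kind the difference was 0.510 points. The gene body, 202 CpGs, stood at 8.05, 8.26, 8.12 and 8.69% in control and 8.30, 8.28, 7.52 and 7.61% in arsenic pools, and 2 arsenic pools were below all control pools (difference −0.352 points, exact permutation p = 0.286, and 0.358 points with CpGs weighted by coverage).

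From 97 to 1337 bases after the Fosb start 125 CpGs were at 0.722 to 1.68% in all 8 pools. Around exon 2 the level of 17 CpGs was 44.6 to 50.1% in control and 42.2 to 47.2% in arsenic pools, and in the last exon 10 CpGs stood at 58.7 to 64.4% in control and 54.0 to 60.3% in arsenic pools. In the last exon chr7:19303017 had the largest difference without overlap, with 67.7, 82.4, 68.2 and 90.9% in control and 65.5, 59.3, 65.7 and 53.3% in arsenic pools, from 17 to 35 reads. The lowest control pool and the highest arsenic pool were about 2 points apart (difference −14.9 points, q = 0.178). With both strands summed the difference was −9.35 points (q = 0.154 by logistic regression).

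**Figure D5:**
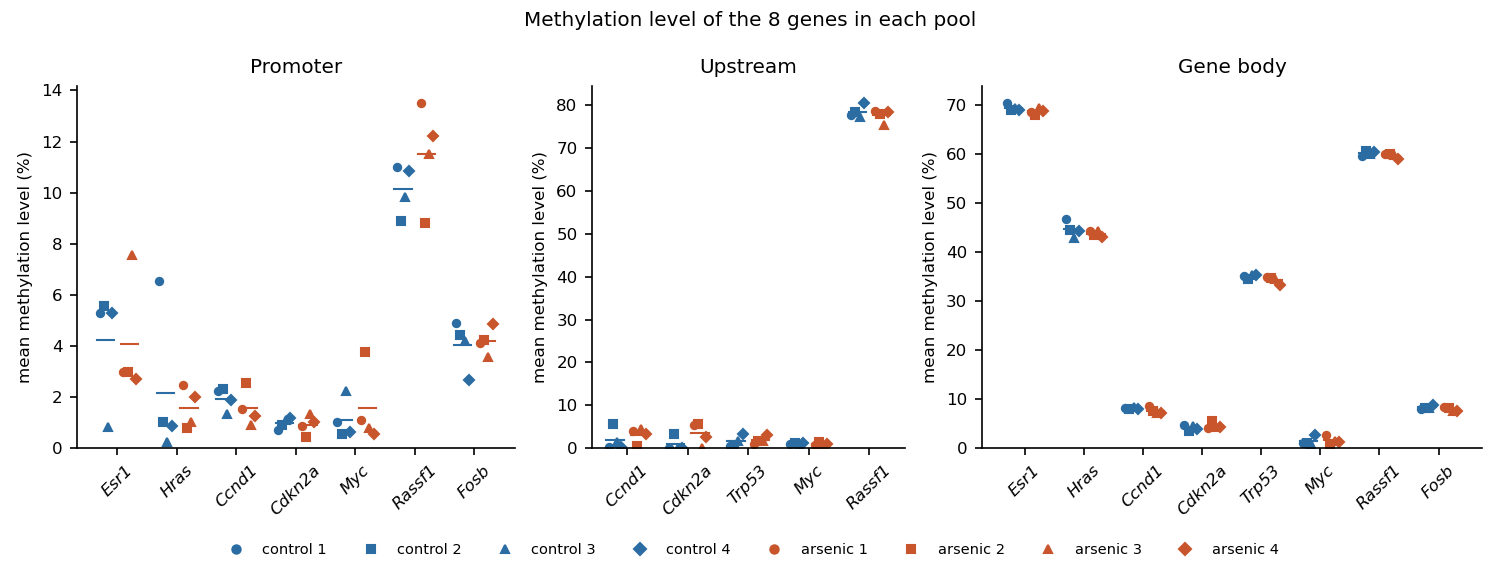
Average methylation level in percent (vertical axes) of the promoter, upstream stretch and gene body of each gene (horizontal axis) in each of the 8 pools, with lines at the group means (n = 4 each). Regions with fewer than 3 CpGs, such as the Trp53 promoter, are left out. The gene bodies order the genes from Myc, at most 2.62%, to Esr1, at most 70.4%, with pools of both groups close together.

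RRBS libraries are made from fragments that MspI cuts at CCGG. Of the 1191 CpGs 177 (14.9%) lie within CCGG and 1106 (92.9%) within 100 bases of one. RefSeq promoter sequences of 300 bases on GRCm38 were matched for 6 of the 8 genes, all but Ccnd1 and Myc, with 9 starts. CCGG, which reads the same on both strands, was found in 8 of the 9 and in 52.8% of all 32851 promoters. The 9th, without CCGG, is that of Trp53, where 0 CpGs were measured, and in the window at the Hras start, with 4 CCGG, 30 were measured. At the p16 start, the 2 Rassf1 starts and the Fosb start CCGG was present and 0 CpGs were measured in the window.

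The partners of these genes were taken from 7 lists of 60 genes: nuclear receptors, Ras signalling, the Ras association domain family, D-type cyclins and the Rb pathway, the p53 pathway, the Myc network and the AP-1 family. Promoters were covered for 45 of the 60, with a lower level in arsenic pools in 23, and groups did not overlap in 1 (2.22%, where 2.94% of all promoters did not). Gene bodies were covered for 60, lower in 32, and did not overlap in 2 (3.33%, where 3.93% of all gene bodies did not). By limma 0 of these regions were called, as over all gene regions. The promoters held 3 DMCs among 1471 CpGs (0.204%) and the gene bodies 20 among 4619 (0.433%, of which 11 hypoDMCs), beside 0.552% of all CpGs.

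Of the regions without overlap, Trp73, a p53 relative, had a gene body at 65.6, 65.7, 65.5 and 65.4% in control and 63.4, 63.6, 63.8 and 63.2% in arsenic pools. All arsenic pools were lower, by 2.04 points in the mean, over 181 CpGs of which 3 were hypoDMCs. Its promoter held 2 hypoDMCs, and its promoter average overlapped between groups, at 15.3% ± 1.05 and 15.1% ± 0.831 (SD, n = 4 each). The gene body of Ccnd2, which encodes cyclin D2, stood at 45.8, 47.8, 44.9 and 47.3% in control and 44.4, 44.2, 44.2 and 44.1% in arsenic pools, with 0 DMCs. The promoter of Mdm4, which encodes a p53 inhibitor, was low in both groups, at 0.379, 1.05, 0.284 and 0.682% in control and 1.41, 1.10, 1.58 and 2.17% in arsenic pools.

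For these regions the adjusted p by limma over all gene regions was 0.969 for the Trp73 gene body, 0.957 for Ccnd2 and 0.932 for Mdm4. The Trp73 gene body and the Mdm4 promoter were named after their values were seen. The promoter of Batf, an AP-1 partner of lymphocytes, held 1 hypoDMC and stood at 53.4 to 55.7% in control and 41.5 to 57.1% in arsenic pools, a wider spread in the arsenic group. Other genes overlap the span of 5 of the 8: Lrrc56 that of Hras, LTO1 that of Ccnd1, Gm12610 that of Cdkn2a, Wrap53 that of Trp53, and Zmynd10, Gm34106 and Gm9917 that of Rassf1, and their CpGs were counted with the 8 genes where they overlap.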

How the data were processed

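DNA of cells labelled as type A spermatogonia was read by RRBS in 4 control and 4 arsenic pools. The authors deposited 1 table of methylated and unmethylated read counts per cytosine, with coverage of at least 10 in all pools. Per the submitters' processing notes Trim Galore 0.6.5, Bismark 0.22.3 and methylKit 1.22.0 were used with mm10. PCR reads carried no molecular identifiers in the sources used here, so intervals and limits cover counting error only.

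From these deposited counts, levels were computed for 2130064 CpGs on the autosomes, X and Y and placed on curated RefSeq transcripts of GRCm38 patch 6. Average levels of regions were compared by two-sided exact permutation tests over the 70 assignments of pools, and by limma 3.58.1 (R 4.3.3) on log2 ratios with pseudocount 1 and Benjamini-Hochberg adjustment over 35499 regions. CpGs were tested by a likelihood-ratio test in logistic regression. Python 3.11.15, numpy 2.4.6, scipy 1.17.1 and pandas 2.3.3 were used. Wilson intervals are at 95% confidence, and a count of 0 allows 3 reads of the total. The code was tested on simulated data.

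The genes, lists and tests were chosen with earlier results of these data known. Named CpGs are each DMC and, in a gene with none, the largest difference without overlap. Named list genes have a DMC in the promoter or the largest difference without overlap, and others are named as chosen later. Alternatives tried were coverage minimum, deepest CpGs, strands, weighting, promoter definition, pseudocount, CpGs per region, difference threshold, test, replicate block and leaving out each pool.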

Additional observations from a re-analysis of the deposited data

Results flagged for a closer look

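In a group of 4 pools, 1 pool lay far from the other 3 by Dixon's test in 8 of the 56 groups examined. In 2 of the 8 the other 3 pools were tied at 0 or 100%, where any differing pool gives this outcome. Among the 52 groups without 3 tied values it was 6, where chance gives about 1 in 20 groups, or 2.6. Control pool 1 was high in the Hras promoter (6.54%, others 0.236 to 1.01%). In the Esr1 promoters control pool 3 was low (0.840%, others 5.28 to 5.56%) and arsenic pool 3 was high (7.55%, others 2.71 to 2.99%). Arsenic pool 2 was high in the Cdkn2a gene body (5.59%, others 4.02 to 4.21%), and control pool 2 was high in the 3 upstream CpGs of Cdkn2a (3.33%, others 0.0%). Control pool 4 was high in the Myc gene body (2.61%, others 0.903 to 1.02%) and low at the Esr1 CpG chr10:4837800 (96.1%, others 100%). Arsenic pool 4 was low in the Rassf1 gene body (58.9%, others 59.9 to 60.1%).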

How the results depend on the processing

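The 0 regions called by limma stayed 0 under each alternative run. The count of DMCs was 1 with a difference of at least 15 points (0.0840%, beside 0.311% of all CpGs), 3 at a coverage of at least 20 (0.457%, beside 0.713%), 0 with overdispersion scaling and an F test and 0 with limma per CpG (0% of all CpGs in both), and 1 to 11 when 1 pool was left out (0.0840 to 0.924%, beside 0.541 to 0.615%). CpGs without overlap numbered 12 of 656 at a coverage of at least 20 (1.83%, beside 2.35% of all CpGs) and 28 to 40 of 1191 when 1 pool was left out (2.35 to 3.36%, beside 4.14 to 4.29%). Regions without overlap then numbered 0 to 1, beside 6.11 to 6.93% of all gene regions. More CpGs and regions lack overlap with fewer pools because fewer values have to be separate. Differences of regions changed sign at a coverage of at least 20 in the promoters of Ccnd1 (0.157 points), Cdkn2a (0.192) and Hras (1.2), the Myc gene body (−0.0766) and the Myc upstream stretch (0.184). With both strands summed they did so upstream of Myc (0.0470) and Rassf1 (0.679), and with coverage weights in the Cdkn2a gene body (−0.224) and promoter (0.0575), the Fosb gene body (0.358) and promoter (−0.206), the Hras gene body (4.17) and the Myc upstream stretch (0.0685); the cause was not tested. Without a change of sign, 6 of 18 differences moved by over 1.5 times at a coverage of at least 20, 6 of 19 with both strands summed, 12 of 20 with coverage weights and 2 of 20 with the promoter of the outermost start only. Leaving out 1 pool gave ranges across 0 in the promoters of Cdkn2a (−0.200 to 0.0994), Esr1 (−1.35 to 0.265), Fosb (−0.309 to 0.437), Hras (−1.24 to 0.860) and Myc (−0.292 to 0.825), the Myc gene body (−0.140 to 0.621), and upstream of Myc (−0.245 to 0.0317) and Trp53 (−0.131 to 0.859). It moved others by over 1.5 times without a change of sign, in the Ccnd1 promoter (−0.695 to −0.147), gene body (−0.859 to −0.375) and upstream stretch (0.596 to 2.44), the gene bodies of Cdkn2a (0.0318 to 0.577), Esr1 (−0.993 to −0.428), Fosb (−0.476 to −0.216), Hras (−1.45 to −0.141), Rassf1 (−0.634 to −0.186) and Trp53 (−0.825 to −0.316), the Rassf1 promoter (0.706 to 2.27) and upstream of Rassf1 (−1.16 to −0.0181). Promoters were lower in 2 to 4 of 7 when 1 pool was left out (medians −0.147 to 0.418) and in 1 of 6 at a coverage of at least 20. Of 224 region and site values without 1 pool 204 kept direction and call, and of 202 under the other alternatives 184 did. With 3 against 4 pools the exact permutation p of a region cannot be below 0.0571. No region could be called there, so for regions the first tally measures direction only.

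With the replicate number as a block, 2 DMCs (0.168%, beside 0.377% of all CpGs) and 0 regions were called (lowest adjusted p 0.971 in the 8 genes by limma). Same-numbered pools correlated at −0.00509 to 0.0124 and the other pairs at −0.0157 to 0.0191, so the levels show no pairing by number. Whether same-numbered pools shared a preparation or sequencing run was not tested. In the 8 genes the block changed no call, and over all CpGs the share of DMCs without it was 0.552%. Chosen after seeing the data, halving of even counts gave 2 DMCs (0.168%, beside 0.535% of all CpGs), CpGs between 10 and 90% alone gave 2, of which 1 was a hypoDMC (1.08%, beside 1.05% of all CpGs of that class), and without cytosines outside CG the Fosb promoter difference was 0.510 points. A coverage of 31 to 44 reads limits single CpGs to coarse levels.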
